A study of Homo sapiens with 9 samples.

Results

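Mitosis and spindle genes were followed in LiSa-2 cells, a human liposarcoma line with adipocyte features, after treatment with bovine testicular hyaluronidase (HAase). The set comprised 49 genes chosen by function: regulators of mitotic entry, chromosome condensation, kinetochores, the spindle checkpoint, the chromosomal passenger complex, spindle assembly, kinesin motors, chromosome separation and cytokinesis. Each gene was represented by 1 probe set with a single gene symbol, the brightest over the 9 arrays. All 49 were found among the 19775 genes measured, and all 49 passed the filter on dim genes that left 13842 genes for testing. Transcripts were measured on Affymetrix Human Genome U133 Plus 2.0 arrays, in 3 groups of 3 samples. The PBS group received phosphate-buffered saline and was harvested at 24 h, and the others received HAase at 400 µg/mL for 6 h or for 24 h. HAase cleaves hyaluronan, a polysaccharide of the extracellular matrix. All groups were grown in the same serum-containing medium, and no sample with inactivated enzyme is analysed here. The PBS samples analysed here were all harvested at 24 h, so at 6 h the enzyme and the time of harvest cannot be told apart. Whether the triplicates came from separate cultures is not stated, so p-values measure a spread that may be technical only. Arrays are called by group and replicate number, as PBS array 2.

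Genes of mitosis are transcribed late in the cell cycle. Their proteins condense the chromosomes, build the spindle, attach it to kinetochores, delay anaphase until attachment is complete, separate the sister chromatids and divide the cell. Many of their promoters carry a cell cycle genes homology region (CHR), bound by MuvB-containing complexes that repress them in resting cells (DREAM, with p130 or p107) and activate them in G2 (with B-MYB and FOXM1). Many also carry CCAAT boxes, bound by NF-Y. In an asynchronous culture these transcripts are abundant mainly in cells in G2 and mitosis. In bulk RNA, fewer cells in G2 and mitosis and less of each transcript per cell cannot be told apart.

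The promoter windows of the genes are shown first, as a description of their sequences. Windows from 250 bases before to 50 bases after the annotated start were given by RefSeq (GRCh38.p14) for 41 of the 49 genes, in 51 windows. TTK, FOXM1, TPX2, RACGAP1, BIRC5, AURKA, UBE2C and BUB3 had no entry. Searched on both strands were the CHR letters TTTGAA and the variant TTCGAA, which reads the same on either strand and was counted once, and CCAAT. Overlapping matches were each counted. In the following windows, written 5′ to 3′ in the direction of the gene, capitals mark these matches. CCNB2, PLK1 and CDC20 are shown for holding both motifs, BUB1 for the variant CHR letters, KIF20A for CCAAT boxes without CHR letters, and CENPE for neither motif. KIF20A and CENPE are also shown as the genes of largest change at 6 h.
CCNB2 (chr15:59104896-59105195, + strand): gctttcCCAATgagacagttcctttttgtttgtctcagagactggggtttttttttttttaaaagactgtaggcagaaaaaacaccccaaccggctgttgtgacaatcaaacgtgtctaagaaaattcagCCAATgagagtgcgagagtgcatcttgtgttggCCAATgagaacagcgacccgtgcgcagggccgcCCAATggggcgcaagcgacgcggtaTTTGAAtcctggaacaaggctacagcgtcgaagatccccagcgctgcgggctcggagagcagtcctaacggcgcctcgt
PLK1 (chr16:23678639-23678938, + strand): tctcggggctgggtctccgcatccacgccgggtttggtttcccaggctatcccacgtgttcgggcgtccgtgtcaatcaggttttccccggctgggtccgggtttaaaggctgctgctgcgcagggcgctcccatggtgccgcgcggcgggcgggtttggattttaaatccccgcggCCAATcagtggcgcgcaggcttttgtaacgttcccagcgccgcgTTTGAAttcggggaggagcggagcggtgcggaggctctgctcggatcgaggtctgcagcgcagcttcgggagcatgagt
CDC20 (chr1:43358731-43359030, + strand): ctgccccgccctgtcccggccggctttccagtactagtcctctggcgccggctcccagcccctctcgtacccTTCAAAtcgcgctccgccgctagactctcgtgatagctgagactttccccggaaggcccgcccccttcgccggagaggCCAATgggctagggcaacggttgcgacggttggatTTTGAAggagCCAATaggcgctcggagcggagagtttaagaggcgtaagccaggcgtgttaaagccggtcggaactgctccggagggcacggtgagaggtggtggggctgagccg
BUB1 (chr2:110678014-110678313, - strand): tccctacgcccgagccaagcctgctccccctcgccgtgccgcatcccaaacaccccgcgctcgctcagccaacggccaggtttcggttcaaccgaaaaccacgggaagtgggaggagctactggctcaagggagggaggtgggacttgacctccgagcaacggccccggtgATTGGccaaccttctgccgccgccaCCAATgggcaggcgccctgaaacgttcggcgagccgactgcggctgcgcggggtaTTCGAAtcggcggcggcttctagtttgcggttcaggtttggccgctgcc
KIF20A (chr5:138178862-138179161, + strand): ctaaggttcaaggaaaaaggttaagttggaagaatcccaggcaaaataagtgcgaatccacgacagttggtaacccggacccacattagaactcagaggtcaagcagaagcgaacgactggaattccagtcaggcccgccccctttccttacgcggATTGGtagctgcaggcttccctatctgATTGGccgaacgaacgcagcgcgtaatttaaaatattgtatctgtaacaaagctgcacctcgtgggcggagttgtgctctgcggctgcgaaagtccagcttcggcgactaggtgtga
CENPE (chr4:103198294-103198593, - strand): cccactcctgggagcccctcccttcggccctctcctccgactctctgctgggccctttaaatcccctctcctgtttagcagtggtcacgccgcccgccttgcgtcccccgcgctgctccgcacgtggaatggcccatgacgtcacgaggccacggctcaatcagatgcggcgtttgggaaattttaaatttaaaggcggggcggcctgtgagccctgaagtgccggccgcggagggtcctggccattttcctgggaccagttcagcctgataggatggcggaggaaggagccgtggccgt

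CHR letters were present for 31 of the 41 genes (75.6%), against 16% of the 11167 tested genes that had a window and 19.5% of all 27305 genes with one. CCAAT was present for 33 of 41 (80.5%), against 42.9% of tested genes. At least 2 CCAAT boxes in a window were found for 51.2% of the mitosis genes and 15.8% of tested genes. Both motifs shared a window for 26 of 41 (63.4%), against 6.66% of tested genes. The 45 CHR matches lay close to the start, with a median position of -26, and 34 of them were within 100 bases of it. The 76 CCAAT matches lay farther upstream, at a median of -74.5, with 52 within 100 bases. In CCNB2 and PLK1 the CHR letters began at -29, downstream of the nearest CCAAT box at -54 and -73. In CDC20 CHR letters began at -178 and -65 and CCAAT boxes at -100 and -55. The 10 genes without CHR letters in these windows were KIF2C, NEK2, CENPE, CCNA2, CCNB1, KIF20A, PTTG1, CKAP2, AURKB and SPC24. The median log2 fold change at 6 h was -0.77 for the 31 genes with them and -0.77 for the 10 without. The 8 genes with no window had a median of -0.56. A match describes letters in a window and is not a measured binding site.

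**Figure D1:**
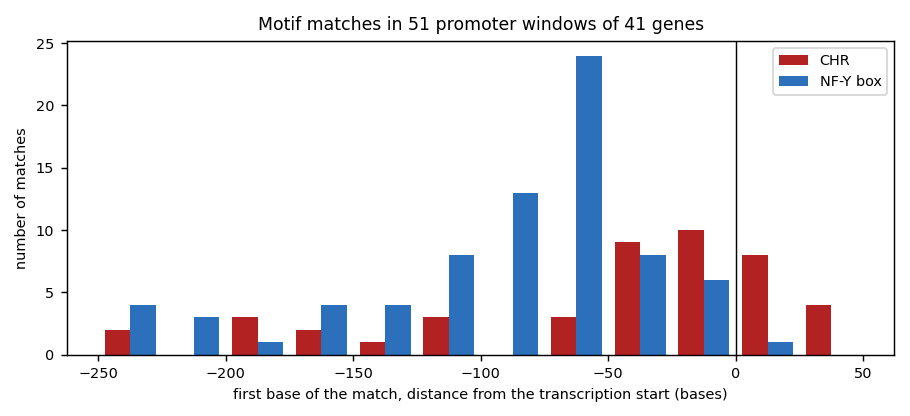
Number of CHR and NF-Y box (CCAAT) matches in bins of 25 bases along the 51 promoter windows of 41 mitosis genes, by distance of the first base from the transcription start; matches are counted per window, and windows of 1 gene can overlap. CHR matches have a median position of -26 and NF-Y boxes one of -74.5.

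The arrays were of like brightness, with medians between 55.8 and 61.3 on a scale set to 1 trimmed mean per array before deposit. Arrays of 1 group correlated across genes at 0.989 or more, and arrays of different groups at 0.974 or less. Of 10 adipocyte markers 9 were brighter than the bacterial control probe sets throughout PBS and 6 h, and 8 at 24 h. Their summed signal was 81861 to 86637 in PBS, 70482 to 73567 at 6 h and 44198 to 49754 at 24 h. Of 6 fibroblast and mesenchymal markers 4 or 5 were, with sums of 30058 to 32273, 30924 to 32062 and 25754 to 33606. Of 7 leukocyte markers 4 were in every group (LCP1, ITGAM, CD163 and CSF1R, while PTPRC, CD3E and CD14 were not on every array), with summed signals of 327 to 392 in PBS, 466 to 491 at 6 h and 987 to 1027 at 24 h. Of 8 epithelial markers 4 were in PBS and at 6 h and 2 at 24 h, with sums of 737 to 1081 in PBS, 676 to 816 at 6 h and 839 to 987 at 24 h. Of 6 endothelial markers only PECAM1 was, in each group, with sums of 285 to 354, 384 to 436 and 432 to 463. The part of these shifts in the results on mitosis genes was not tested. Every mitosis gene was brighter than the control probe sets on all 9 arrays.

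After 6 h of HAase nearly the whole set was lower than in PBS, and after 24 h most of it was higher than at 6 h. With PBS arrays at 24 h only, a fall and return over time cannot be told from these groups. At 6 h, 46 of the 49 genes fell and none rose by limma (adjusted p under 0.05), while 27.4% of all tested genes were called lower and 15% higher. The median log2 fold change of the set was -0.76, against -0.08 for all genes tested. The largest falls were those of the kinetochore motor CENPE (-2.16, 4.47-fold), the cytokinesis kinesin KIF20A (-1.84, 3.57-fold) and the anaphase activator CDC20 (-1.38, 2.6-fold). The fall was 2-fold or more for 14 genes, 28.6% of the set, against 3.22% of all tested genes. The genes that did not pass were BUB3 (-0.03), KIF23 (-0.35, adjusted p = 0.0784) and INCENP (-0.44, adjusted p = 0.0818). In 46 of the 49 every 6 h array lay below every PBS array, against 34.5% of all tested genes. With 3 arrays in each group, an exact permutation test of a single gene cannot give a two-sided p under 0.1.

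At 24 h, 29 genes were lower than in PBS and 1, BUB3, was higher, with 22.8% of all tested genes called lower and 17.5% higher. The median was -0.30, against -0.03 for all genes. KIF20A alone was still 2-fold lower or more (2.07-fold), where 4.25% of all tested genes were. Arrays at 24 h lay below all PBS arrays for 40 of the 49, against a background of 28.9%, and above them for BUB3, against one of 23.1%. In the direct comparison of the times, 42 of the 49 were higher at 24 h than at 6 h and none was lower, while 19.7% of all tested genes were called higher and 13.3% lower. The median difference was 0.44, against 0.05 for all genes. The 24 h arrays lay above all 6 h arrays for 44 genes, against 27.5% of all tested genes. The 7 genes not past this test were SPC25, MAD2L1, KIF18B, FOXM1, CDK1, INCENP and PTTG1. The 3 comparisons share arrays: both comparisons with PBS rest on the same PBS arrays, and the comparison of the times reuses the treated ones.

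**Figure D2:**
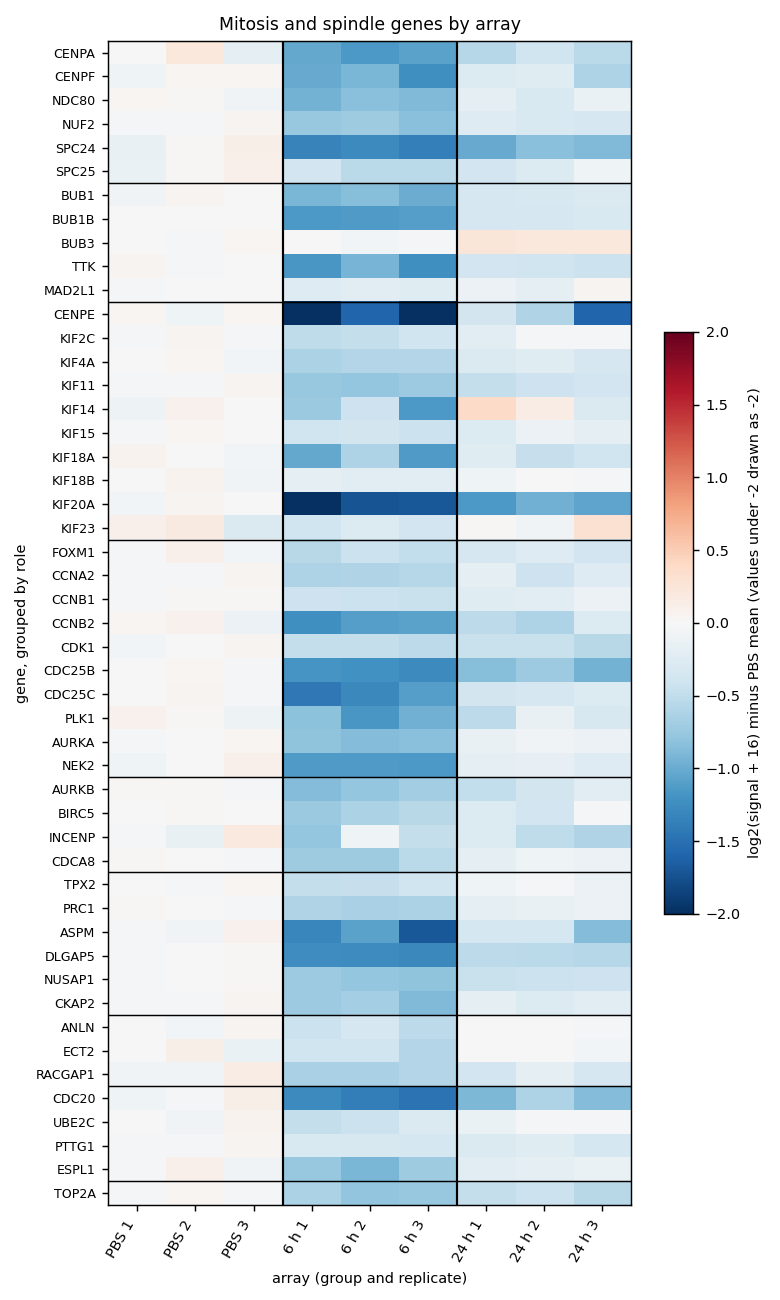
Level of each of the 49 genes (rows, grouped by role) on each of the 9 arrays (columns), as log2(signal + 16) minus the mean of the PBS arrays; blue is lower, red is higher, and values under -2 are drawn as -2. The array medians over the 49 genes lie between -0.74 and -0.70 at 6 h and between -0.29 and -0.27 at 24 h, and BUB3 is the row that is red on every 24 h array.

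**Figure D3:**
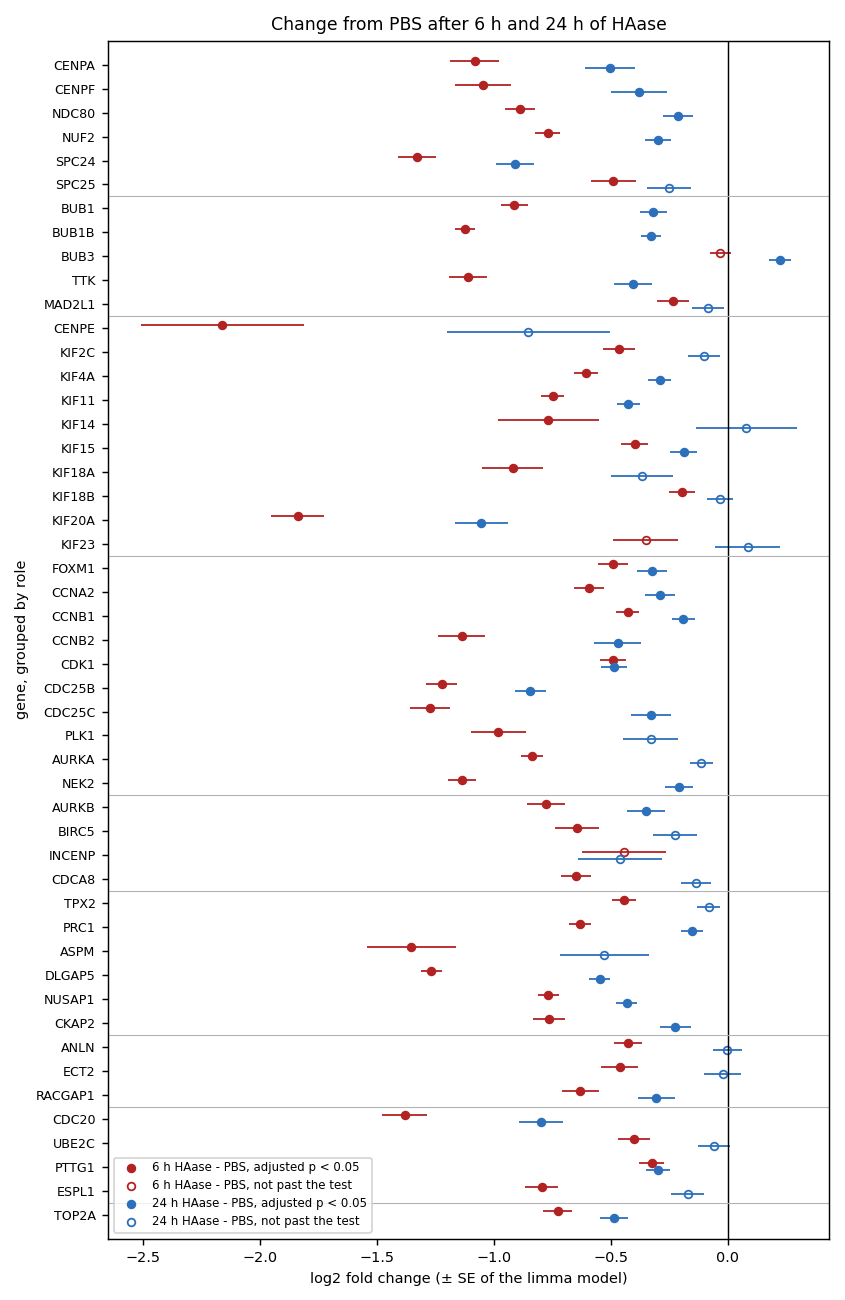
log2 fold change against PBS (x axis, ± SE of the limma model, n = 3 arrays per group) of each gene at 6 h (red) and 24 h (blue); filled points passed the test at an adjusted p under 0.05 and open points did not. At 6 h 46 points are filled, and at 24 h 29 are filled below 0 and BUB3 is filled above it.

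Regulators of mitotic entry fell at 6 h. All 10 were called lower (27.4% of all tested genes), and all 6 h arrays lay below all PBS arrays (34.5%). At 24 h 8 of the 10 were still called lower (22.8% of all tested genes), and 8 were called higher than at 6 h (19.7%). All 10 had every 24 h array below every PBS array (28.9% of all tested genes). CDK1, the kinase that drives entry into mitosis, gave signals of 19373, 20207 and 20921 on the PBS arrays, 14449, 14559 and 14012 at 6 h and 14764, 14729 and 13656 at 24 h. The treated arrays overlapped with each other and lay below PBS, with log2 fold changes of -0.49 ± 0.06 at 6 h (SE, adjusted p = 0.000265) and -0.49 ± 0.06 at 24 h (adjusted p = 0.000237), and the times differed by 0.00 ± 0.06 (adjusted p = 0.969). Its partner cyclin B1 (CCNB1) gave 14122, 14661 and 14698 on the PBS arrays, 10909.5, 10752 and 10643 at 6 h and 12260.1, 12554 and 13322 at 24 h. CCNB1 fell at both times, with log2 fold changes of -0.43 ± 0.05 at 6 h (SE, adjusted p = 0.000343) and -0.19 ± 0.05 at 24 h (adjusted p = 0.0182), and its 24 h call was lost without PBS array 2 or 3, or 24 h array 1 or 2 (adjusted p 0.0533 to 0.0617) and with equal array medians (adjusted p = 0.0627). Cyclin B2 (CCNB2) fell 2.2-fold at 6 h and 1.39-fold at 24 h, and cyclin A2 (CCNA2), which acts in S phase and G2, 1.51-fold and 1.22-fold.

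The phosphatases that remove inhibitory phosphate from CDK1 had the largest falls of this group at 6 h. CDC25C gave 1197, 1253 and 1179 on the PBS arrays, 437, 488 and 556 at 6 h and 930.0, 953 and 999 at 24 h, with log2 fold changes of -1.27 ± 0.09 at 6 h (SE, adjusted p = 1.83e-05) and -0.33 ± 0.09 at 24 h (adjusted p = 0.0168). It was 1.92-fold higher at 24 h than at 6 h, and the 24 h arrays lay between the other groups without overlap. The 24 h call of CDC25C was lost without PBS array 2, or 24 h array 1 (adjusted p 0.0540 to 0.0564). CDC25B fell from 7644 ± 191 in PBS to 3268 ± 112 at 6 h and 4261 ± 329 at 24 h (SD, n = 3 each), 2.33-fold and 1.79-fold lower.

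Among the mitotic kinases, PLK1, which acts at centrosomes, kinetochores and in cytokinesis, gave 553, 529 and 488 on the PBS arrays, 289, 226 and 259.6 at 6 h and 359.6, 468 and 417 at 24 h. All treated arrays lay below the PBS arrays, with log2 fold changes of -0.98 ± 0.12 at 6 h (SE, adjusted p = 0.000371) and -0.33 ± 0.12 at 24 h (adjusted p = 0.0561). At 24 h PLK1 passed the test without 6 h array 2, or 24 h array 2 (adjusted p 0.0318 to 0.0455) and with a pseudocount of 64, the 50th percentile filter or a trended robust variance (adjusted p 0.0295 to 0.0427). AURKA, the centrosome kinase, had means of 7485 ± 212 in PBS, 4183 ± 96.1 at 6 h and 6916 ± 184 at 24 h (SD, n = 3 each). At 24 h its difference from PBS was -0.11 ± 0.05 (SE, limma adjusted p = 0.103). With quantile normalization or a trended robust variance AURKA was called lower at 24 h (adjusted p = 0.0212 and 0.0394). NEK2, which separates the centrosomes, fell 2.2-fold at 6 h and was 1.9-fold higher at 24 h than at 6 h. Its remaining difference at 24 h (-0.21) was past the test but lost without PBS array 2 or 3, or 24 h array 1 or 3 (adjusted p 0.0532 to 0.0728) and with equal array medians, no filter, only the arrays compared or a replicate block (adjusted p 0.0555 to 0.0734). FOXM1, the transcription factor that activates many genes of this set in G2, gave 2603, 2862 and 2565 on the PBS arrays, 1809, 1988 and 1905 at 6 h and 2117, 2227 and 2057 at 24 h. FOXM1 fell at both times, with log2 fold changes of -0.49 ± 0.07 at 6 h (SE, adjusted p = 0.000649) and -0.32 ± 0.07 at 24 h (adjusted p = 0.00512), and the times differed by 0.17 ± 0.07, adjusted p = 0.0917, which passed with a trended robust variance (adjusted p = 0.0438). The FOXM1 probe set is of a kind (x_at) whose probes can also match other transcripts.

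TOP2A, the topoisomerase that untangles and helps condense chromosomes, gave 16475, 17263 and 16529.9 on the PBS arrays, 10777, 9692 and 9923 at 6 h and 12039.9, 12475 and 11367 at 24 h. It fell at both times, with log2 fold changes of -0.73 ± 0.06 at 6 h (SE, adjusted p = 6.28e-05) and -0.49 ± 0.06 at 24 h (adjusted p = 0.000451). Its difference between the times, 0.24 ± 0.06, passed the test (adjusted p = 0.0195). That call was lost without 6 h array 2 or 3, or 24 h array 1 or 2 (adjusted p 0.0550 to 0.0657) and with equal array medians or only the arrays compared (adjusted p 0.0510 to 0.0943). A further bright TOP2A probe set (mean signal 6858) was no higher at 24 h than at 6 h: it gave -0.86, adjusted p = 0.0406 at 6 h, -1.17, adjusted p = 0.0109 at 24 h and -0.31, adjusted p = 0.490 between the times.

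All 6 kinetochore genes fell at 6 h (27.4% of all tested genes were called lower). At 24 h 5 were still called lower than in PBS (22.8% of all tested genes), and 5 were called higher than at 6 h (19.7%). SPC24, a subunit of the NDC80 complex that binds microtubules, gave 927, 1040.0 and 1113 on the PBS arrays, 396, 415 and 385 at 6 h and 499, 566 and 548 at 24 h. The 3 groups did not overlap, with log2 fold changes of -1.33 ± 0.08 at 6 h (SE, adjusted p = 1.12e-05) and -0.91 ± 0.08 at 24 h (adjusted p = 6.12e-05). Its partner SPC25 gave 2553, 2843 and 2986 on the PBS arrays, 2131, 1906 and 1918 at 6 h and 2128, 2302 and 2615 at 24 h. SPC25 had the smallest fold change of the kinetochore genes at 6 h, with log2 fold changes of -0.49 ± 0.10 at 6 h (SE, adjusted p = 0.00444) and -0.25 ± 0.10 at 24 h (adjusted p = 0.0714), and the times differed by 0.24 ± 0.10, adjusted p = 0.0974. It passed the test at 24 h without 24 h array 3 (adjusted p = 0.0282) and with the 50th percentile filter or a trended robust variance (adjusted p 0.0219 to 0.0402), and between the times with a trended robust variance (adjusted p = 0.0339). The other subunits of the complex lay between them at 6 h: NDC80 fell 1.85-fold at 6 h and 1.16-fold at 24 h, and NUF2 1.7-fold and 1.23-fold. The 24 h call of NDC80 did not hold without PBS array 1 or 2, or 24 h array 1 or 2 (adjusted p 0.0646 to 0.0910) or with no filter, only the arrays compared or a replicate block (adjusted p 0.0542 to 0.0702). CENPA, the histone H3 variant that marks centromeres, was 2.12-fold lower at 6 h and 1.42-fold lower at 24 h. The CENPA probe set is of the x_at kind, whose probes can also match other transcripts. CENPF, a kinetochore and nuclear envelope protein, was 2.07-fold and 1.3-fold lower. CENPF did not pass at 24 h without any 1 of the PBS arrays, 6 h array 1, or 24 h array 3 (adjusted p 0.0546 to 0.101) or with no filter (adjusted p = 0.0639). In a fit over all probe sets, a further CENPF probe set (mean signal 1478) was called lower at 24 h (-0.47, adjusted p = 0.00821). A dim one (mean signal 49.6) was not (-0.27, adjusted p = 0.493).

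In the spindle checkpoint, which holds back anaphase until every kinetochore is attached, the kinases fell and BUB3 did not. BUB1B (BubR1) gave 5256, 5298 and 5314 on the PBS arrays, 2383, 2413 and 2469 at 6 h and 4169, 4190.1 and 4259 at 24 h. The groups were tight and far apart, with log2 fold changes of -1.12 ± 0.04 at 6 h (SE, adjusted p = 8.33e-07) and -0.33 ± 0.04 at 24 h (adjusted p = 0.000513) and 1.73-fold higher at 24 h than at 6 h. BUB1 fell 1.88-fold and 1.25-fold, and TTK (MPS1), the kinase at the top of the checkpoint, 2.16-fold and 1.32-fold. MAD2L1 (MAD2), the protein that inhibits CDC20, fell 1.18-fold at 6 h, from 6371 ± 110.1 to 5412 ± 108 (SD, n = 3 each), and was -0.08 ± 0.07, adjusted p = 0.379 at 24 h. Its 6 h call was lost without any 1 of the PBS arrays, or any 1 of the 6 h arrays (adjusted p 0.0512 to 0.0738) and with dim genes kept in the test (adjusted p = 0.0554). BUB3, which carries BUB1 and BUB1B to kinetochores, gave 7964, 7858 and 8293 on the PBS arrays, 7970.4, 7742 and 7869 at 6 h and 9490.2, 9312 and 9334 at 24 h. At 6 h BUB3 overlapped with PBS, and at 24 h every array lay above both other groups, with log2 fold changes of -0.03 ± 0.05 at 6 h (SE, adjusted p = 0.614) and 0.22 ± 0.05 at 24 h (adjusted p = 0.00537). The rise of BUB3 was past the test in each of the 9 fits that left out 1 array. Of its 5 other probe sets, 2 also passed as higher at 24 h in a fit over all probe sets, with log2 fold changes of 0.38 and 0.22, and none was called lower. In that larger fit the brightest probe set itself had an adjusted p of 0.0512.

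The chromosomal passenger complex corrects faulty attachments and guides cytokinesis. Its kinase AURKB gave 891, 896 and 851 on the PBS arrays, 476, 507 and 538 at 6 h and 623, 680.3 and 762 at 24 h, with log2 fold changes of -0.78 ± 0.08 at 6 h (SE, adjusted p = 0.000187) and -0.35 ± 0.08 at 24 h (adjusted p = 0.0101). Every treated array lay below the PBS arrays. BIRC5 (survivin) was 1.56-fold lower at 6 h and gave -0.22 ± 0.09, adjusted p = 0.0945 at 24 h. CDCA8 (borealin) was 1.57-fold lower at 6 h and gave -0.14 ± 0.06, adjusted p = 0.135 at 24 h. BIRC5 passed at 24 h without 24 h array 3 (adjusted p = 0.0117), with a trended robust variance (adjusted p = 0.0285) and with the mean of all probe sets (adjusted p = 0.0485). In a fit over all probe sets, further BIRC5 probe sets (mean signals 1562 and 1323) were called lower at 24 h, at -0.55 and -0.43 (adjusted p = 0.00144 and 0.0187). A dimmer one (mean signal 336) was not (0.04, adjusted p = 0.942). AURKB, BIRC5 and CDCA8 were all higher at 24 h than at 6 h, by 0.43, 0.42 and 0.51. The scaffold INCENP was the dimmest gene of the set, with 136, 125 and 162 on the PBS arrays, 75.3, 131 and 96.6 at 6 h and 113, 93.9 and 87.0 at 24 h. Its arrays at 6 h overlapped with PBS, and it passed neither test, with log2 fold changes of -0.44 ± 0.18 at 6 h (SE, adjusted p = 0.0818) and -0.46 ± 0.18 at 24 h (adjusted p = 0.0765). INCENP passed at 6 h without 6 h array 2 (adjusted p = 0.0170) and at 24 h without 6 h array 1 or 2 (adjusted p 0.0322 to 0.0417) and with only the arrays compared (adjusted p = 0.0329).

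**Figure D4:**
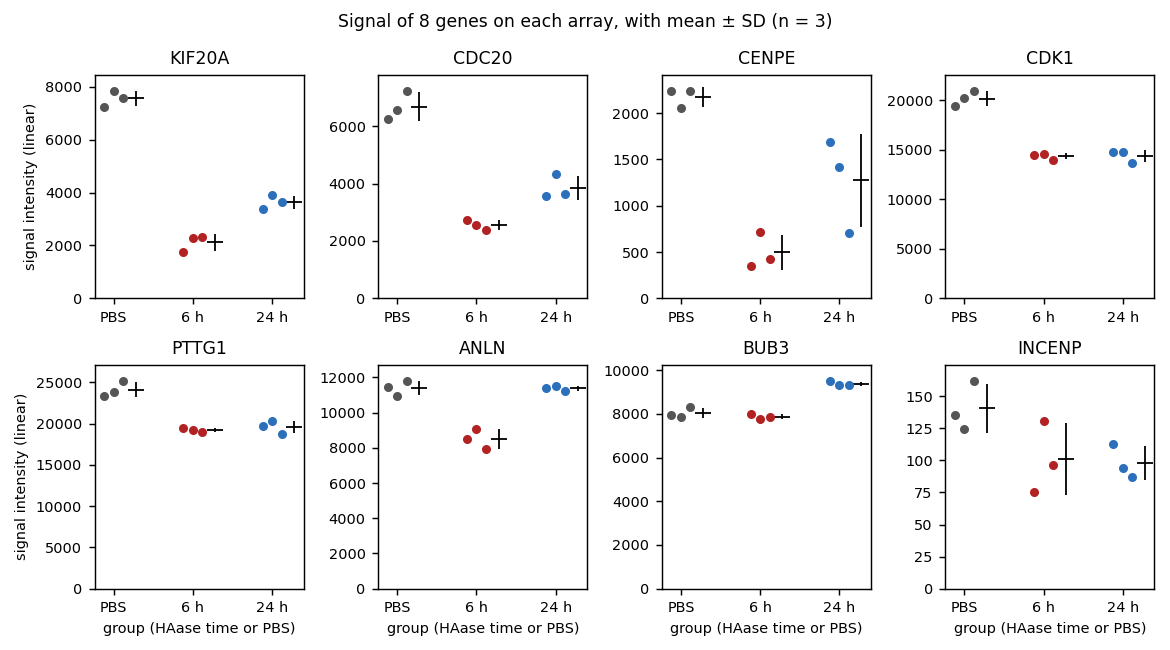
Signal intensity (linear, y axis from 0) of 8 of the 49 genes on each array (points, in the order of replicates 1 to 3) with mean ± SD (n = 3, black) for PBS, 6 h and 24 h of HAase. KIF20A and CDC20 at 24 h lie between 6 h and PBS, CDK1 and PTTG1 overlap between 6 h and 24 h, and ANLN at 24 h overlaps with PBS. BUB3 is higher at 24 h, and CENPE and INCENP are spread widely.

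All 6 spindle proteins fell at 6 h (27.4% of all tested genes were called lower), and all 6 were higher at 24 h than at 6 h (19.7%). At 24 h 4 were called lower than PBS (22.8% of all tested genes), and all 6 had every array below every PBS array (28.9%). ASPM, which focuses spindle poles, gave 5499, 5363 and 5960.4 on the PBS arrays, 2270.2, 2672 and 1715 at 6 h and 4387, 4369.8 and 3047 at 24 h. All treated arrays were below all PBS arrays, but the values on replicate 3 stood apart at both times, and only the 6 h difference passed the test, with log2 fold changes of -1.35 ± 0.19 at 6 h (SE, adjusted p = 0.000847) and -0.53 ± 0.19 at 24 h (adjusted p = 0.0588). At 24 h ASPM passed without 6 h array 2 or 3 (adjusted p 0.0329 to 0.0463) and under 7 of the 10 alternative settings listed with the methods (adjusted p 0.0184 to 0.0497). In a fit over all probe sets, dimmer ASPM probe sets (mean signals 279 and 251) were both called lower at 24 h (-1.05 and -1.53, adjusted p = 0.0423 and 0.0494). Between the times they gave 0.003 and -0.17 (adjusted p = 0.997 and 0.869). TPX2, the activator of AURKA on the spindle, gave 5618, 5477 and 5766 on the PBS arrays, 4029, 4086 and 4272 at 6 h and 5290.0, 5454 and 5183 at 24 h. Its 24 h arrays lay just below PBS, with log2 fold changes of -0.44 ± 0.05 at 6 h (SE, adjusted p = 0.000260) and -0.08 ± 0.05 at 24 h (adjusted p = 0.234). DLGAP5 (HURP), a stabiliser of kinetochore fibres, had means of 5042 ± 128 in PBS, 2086 ± 31.1 at 6 h and 3444 ± 65.9 at 24 h (SD, n = 3 each), 2.41-fold and 1.46-fold lower. NUSAP1 was 1.7-fold and 1.35-fold lower, CKAP2 1.7-fold and 1.17-fold, and PRC1, which bundles the microtubules of the central spindle, 1.55-fold and 1.11-fold. The 24 h call of CKAP2 was lost without any 1 of the PBS arrays, or 24 h array 2 or 3 (adjusted p 0.0568 to 0.0916) and with no filter or a replicate block (adjusted p 0.0622 to 0.0668). The 24 h call of PRC1 was lost without PBS array 1 or 2, 6 h array 2 or 3, or 24 h array 1 or 2 (adjusted p 0.0525 to 0.107) and with equal array medians, no filter, only the arrays compared or a replicate block (adjusted p 0.0770 to 0.104).

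Of the 10 kinesin motors 9 fell at 6 h (27.4% of all tested genes were called lower). At 24 h 4 were called lower than PBS (22.8% of all tested genes), and 9 were higher at 24 h than at 6 h (19.7%). For 7 of the 10 every 24 h array lay below every PBS array (28.9% of all tested genes). CENPE, which carries chromosomes to the spindle equator, gave 2235, 2056 and 2239 on the PBS arrays, 353, 716 and 421 at 6 h and 1691, 1422 and 711 at 24 h. It had the largest fall of the 49 at 6 h (-2.16 ± 0.35, adjusted p = 0.00170), and its treated arrays did not overlap with PBS. The 24 h arrays were wide apart and the difference from PBS, -0.85 ± 0.35, adjusted p = 0.0883, did not pass; without 24 h replicate 3 it was -0.48 (adjusted p = 0.216), and with the 50th percentile as filter or a trended robust variance it passed (adjusted p = 0.0492 and 0.0345). Between the times CENPE overlapped by 1 array, and its rise (1.31) was lost without 6 h array 1 or 3, or 24 h array 1 or 2 (adjusted p 0.0689 to 0.0730) and with only the arrays compared (adjusted p = 0.0603). KIF20A (MKLP2), needed for cytokinesis, fell from 7560.2 ± 295 to 2121 ± 323 at 6 h and stood at 3639 ± 248 at 24 h (SD, n = 3 each). Both falls passed the test, at -1.84 ± 0.11, adjusted p = 1.17e-05 and -1.05 ± 0.11, adjusted p = 0.000181. KIF18B, which shortens astral microtubules, gave 3700.1, 3926 and 3546 on the PBS arrays, 3295, 3208 and 3229 at 6 h and 3495, 3744 and 3676 at 24 h. This was the smallest change of the motors that passed, -0.20 ± 0.06, adjusted p = 0.0231 at 6 h, and it was lost without PBS array 1 or 2, or 6 h array 2 or 3 (adjusted p 0.0566 to 0.0773), with dim genes kept (adjusted p = 0.0552) and with array medians made equal (adjusted p = 0.0770). Its difference between the times, 0.16 ± 0.06, adjusted p = 0.0559, passed with quantile normalization, the 50th percentile filter or a trended robust variance (adjusted p 0.0182 to 0.0471).

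KIF11 (Eg5), which pushes the spindle poles apart, fell 1.68-fold and 1.34-fold, and the chromokinesin KIF4A 1.52-fold and 1.22-fold. KIF15, a motor that can share the work of KIF11, fell 1.32-fold and 1.14-fold. Its 24 h call was lost without any 1 of the PBS arrays, or 24 h array 1 or 3 (adjusted p 0.0503 to 0.0988) and with quantile normalization, equal array medians, no filter or only the arrays compared (adjusted p 0.0531 to 0.0761). Its rise from 6 h to 24 h, 0.21, was lost without 6 h array 1 or 3, or 24 h array 2 or 3 (adjusted p 0.0644 to 0.0804) and with quantile normalization, equal array medians, no filter or only the arrays compared (adjusted p 0.0582 to 0.0889). KIF18A, which limits chromosome oscillation, fell 1.89-fold at 6 h and gave -0.37 ± 0.13, adjusted p = 0.0591 at 24 h, where it passed without 6 h array 2 or 3 (adjusted p 0.00885 to 0.0446) and with equal array medians, a pseudocount of 64, the 50th percentile filter, a trended robust variance or only the arrays compared (adjusted p 0.0149 to 0.0427). The microtubule depolymerase KIF2C (MCAK) fell 1.38-fold at 6 h and gave -0.10 ± 0.07, adjusted p = 0.280 at 24 h. KIF14, a motor of the midbody, fell 1.7-fold at 6 h and gave 0.08 ± 0.22, adjusted p = 0.808 at 24 h, with arrays on both sides of PBS. The 6 h call of KIF14 was lost without PBS array 2 or 3, or 6 h array 1 or 3 (adjusted p 0.0518 to 0.0666), and that between the times without 6 h array 3, or 24 h array 1 or 2 (adjusted p 0.0502 to 0.0584) and with only the arrays compared (adjusted p = 0.0510). In a fit over all probe sets, a further KIF14 probe set (mean signal 1631) passed at 6 h (-0.64, adjusted p = 0.00214) and between the times (0.76, adjusted p = 0.00154). At 24 h it did not (0.12, adjusted p = 0.455). KIF23 (MKLP1), of the centralspindlin complex, gave -0.35 ± 0.14, adjusted p = 0.0784 at 6 h and 0.09 ± 0.14, adjusted p = 0.673 at 24 h. KIF23 passed at 6 h without PBS array 3 (adjusted p = 0.0157), with the 50th percentile as filter (adjusted p = 0.0440) and with a trended robust variance (adjusted p = 0.0256), and its difference between the times (0.44, adjusted p = 0.0455) was lost without PBS array 1, any 1 of the 6 h arrays, or 24 h array 1 or 3 (adjusted p 0.0602 to 0.128) and with quantile normalization, no filter or a replicate block (adjusted p 0.0602 to 0.0947).

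For chromosome separation, CDC20, which activates the anaphase promoting complex, gave 6252, 6576 and 7222 on the PBS arrays, 2737, 2539 and 2396 at 6 h and 3553, 4327 and 3652 at 24 h. The 3 groups were apart on every array, with log2 fold changes of -1.38 ± 0.10 at 6 h (SE, adjusted p = 2.17e-05) and -0.80 ± 0.10 at 24 h (adjusted p = 0.000337), and CDC20 was 1.5-fold higher at 24 h than at 6 h. PTTG1 (securin), the inhibitor of separase, gave 23351, 23813 and 25124 on the PBS arrays, 19516, 19239 and 18926 at 6 h and 19696, 20268 and 18789 at 24 h. As with CDK1, the treated arrays overlapped with each other and lay below PBS, with log2 fold changes of -0.32 ± 0.05 at 6 h (SE, adjusted p = 0.00176) and -0.30 ± 0.05 at 24 h (adjusted p = 0.00262) and a difference of 0.03 ± 0.05, adjusted p = 0.756 between them. The PTTG1 probe set can match close copies of the gene (x_at), so its signal may be shared. Separase itself (ESPL1) fell 1.74-fold at 6 h and gave -0.17 ± 0.07, adjusted p = 0.0864 at 24 h. UBE2C, the ubiquitin-conjugating enzyme of the complex, fell 1.32-fold at 6 h and gave -0.06 ± 0.07, adjusted p = 0.545 at 24 h.

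The 3 cytokinesis genes fell at 6 h (27.4% of all tested genes were called lower). All were higher at 24 h than at 6 h (19.7% of all tested genes). RACGAP1, of the centralspindlin complex, gave 7259.5, 7257 and 8429 on the PBS arrays, 4857, 4852 and 5066 at 6 h and 5836, 6684 and 6021 at 24 h. It fell at both times, with log2 fold changes of -0.63 ± 0.08 at 6 h (SE, adjusted p = 0.000490) and -0.31 ± 0.08 at 24 h (adjusted p = 0.0167). The 24 h call was lost without 24 h array 1 or 3 (adjusted p 0.0503 to 0.0570), and the rise between the times without 24 h array 2 (adjusted p = 0.0514) and with equal array medians (adjusted p = 0.0507). ANLN (anillin), which links actin and myosin in the cleavage furrow, gave 11464, 10956 and 11783 on the PBS arrays, 8486, 9049 and 7939 at 6 h and 11416, 11498 and 11221 at 24 h. Its 24 h arrays overlapped with PBS, with log2 fold changes of -0.43 ± 0.06 at 6 h (SE, adjusted p = 0.000940) and -0.00 ± 0.06 at 24 h (adjusted p = 0.983). ECT2, the activator of RhoA at the furrow, likewise fell 1.38-fold at 6 h and gave -0.02 ± 0.08, adjusted p = 0.861 at 24 h. A dimmer ECT2 probe set (mean signal 204) instead was lower at 24 h (-0.69, adjusted p = 0.0168) than in PBS.

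Replicate spread was small for most of the set and large for a few genes. The median coefficient of variation over the 49 genes was 3.82% in PBS, 4.71% at 6 h and 4.38% at 24 h. CENPE (38.8% at 6 h, 39.7% at 24 h), KIF14 and ASPM exceeded 15% at both times. At 24 h all 3 were lowest on replicate 3, where CENPE read 711, KIF14 1722 against 2754 and 2347, and ASPM 3047. KIF14 and ASPM were lowest on replicate 3 at 6 h too, and CENPE was lowest on replicate 1 there. The log2 difference between the 3′ and 5′ probe sets of ACTB is a sign of RNA quality. A lower value means less 3′ bias, not poorer RNA. The ACTB difference was lowest in its group at 1.14 on 6 h replicate 3 and 1.38 on 24 h replicate 3. That of GAPDH was lowest on 24 h replicate 3 (-0.21). Between groups the ACTB difference was 0.275 lower at 6 h than in PBS (exact permutation p = 0.1, two-sided, the smallest 3 against 3 can give), and the GAPDH difference 0.118 lower at 24 h (p = 0.1, exact). Their part in the results was not tested.

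Of the 49 genes 24 had further probe sets, 44 in all, of which 13 had a mean signal under the highest control level of 65.0. In a fit over all probe sets, 39 of the 44 were below PBS at 6 h, 21 of them past the test, and none was called higher. At 24 h 12 were called lower and 2 higher, both of BUB3. Between the times 12 were called higher and none lower. The shares called among all probe sets in that fit were not worked out, so these counts are a description only. No further probe set was called in the direction opposite to a called main probe set. With the mean of all probe sets of a gene in place of the brightest, CKAP2 lost its 6 h call (adjusted p = 0.0524). SPC24, BUB1, KIF15, CDC25C, AURKB, PRC1 and CKAP2 then lost their 24 h calls (adjusted p 0.0526 to 0.581). CCNB2 also lost its 24 h call and stood at 0.063 (adjusted p = 0.805). SPC24, BUB1, KIF23, CCNB1, AURKB, ASPM, NUSAP1, CKAP2, ECT2 and TOP2A then lost their calls between the times (adjusted p 0.0719 to 0.837). Under the same setting ASPM, BIRC5 and ECT2 gained a call as lower at 24 h (adjusted p 0.0215 to 0.0485). MAD2L1 gained one as higher between the times (adjusted p = 0.0334).

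Beyond the 49 genes, most of 59 other tested mitosis genes also fell at 6 h. The calls at 6 h were 44 lower and 1 higher (74.6% and 1.69%, against 27.4% and 15% of all tested genes; median log2 fold change -0.48). At 24 h 29 were lower and 3 higher than in PBS (49.2% and 5.08%, against 22.8% and 17.5%; median -0.25), and between the times 35 were higher and 2 lower (59.3% and 3.39%, against 19.7% and 13.3%; median 0.30). The largest falls at 6 h were those of the kinesin KIF20B (-1.41), CDCA3 (-1.38), the hyaluronan receptor and spindle protein HMMR (-1.33) and PSRC1 (-1.26). HMMR was -0.20 ± 0.09, adjusted p = 0.112 at 24 h. The 1 gene that rose, MAD1L1, a partner of MAD2, was named after its values were seen: it gave 0.50 at 6 h and 2.21 at 24 h (adjusted p = 0.00122 and 3.31e-07). Of 16 tested subunits of the anaphase promoting complex, 5 fell at 6 h (31.2%), a share near the 27.4% of all tested genes, and none rose (median -0.15). At 24 h 2 were lower and 2 higher (12.5% each), below the 22.8% and 17.5% of all tested genes (median -0.03). ANAPC13 (-0.34), ANAPC5 (-0.33), ANAPC7 (-0.26) and CDC16 (-0.26) fell most.

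Of 39 tested genes of DNA replication and S phase, 4 fell and 12 rose at 6 h (10.3% and 30.8%, against 27.4% and 15% of all tested genes; median 0.00). At 24 h 7 were lower and 4 higher (17.9% and 10.3%, both below the 22.8% and 17.5% of all tested genes; median -0.06). Between the times 10 were lower and 3 higher (25.6% and 7.69%, against 13.3% and 19.7%; median -0.13). Cyclin E1 (CCNE1), which drives S phase entry, rose by 0.63 at 6 h, the ribonucleotide reductase subunit RRM2 by 0.44, the replication licensing factor CDT1 by 0.44 and UHRF1, which maintains DNA methylation, by 0.40. At 24 h the same genes stood at 0.47, 0.45, 0.10 and 0.40 from PBS, and CDT1 was not past the test (adjusted p = 0.633). The shares in the list are a description, and the difference between the lists was not tested.

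**Figure D5:**
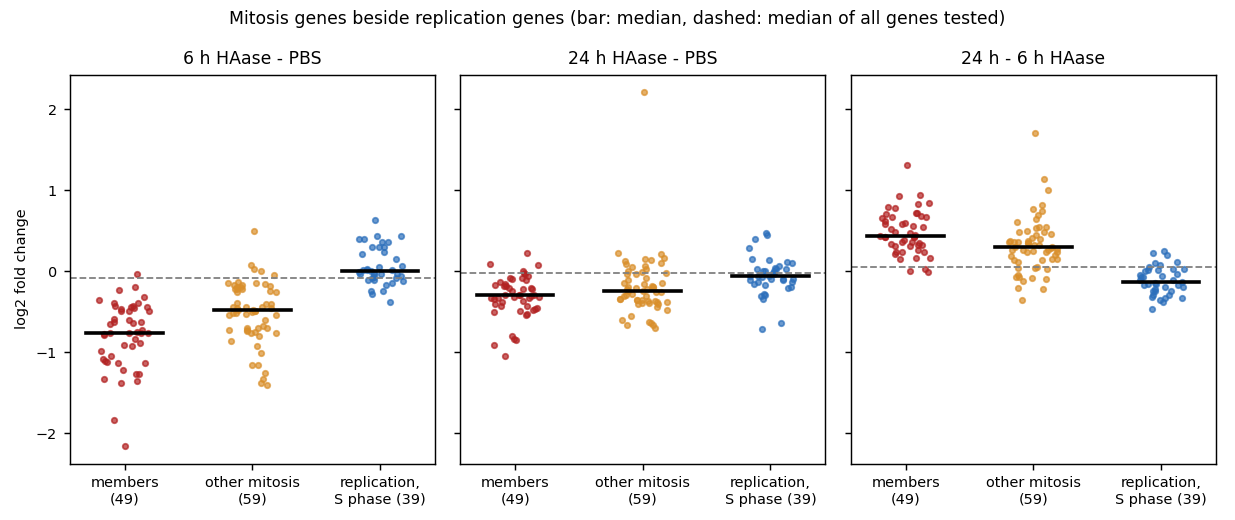
log2 fold change of each gene (points) in the 3 comparisons, for the 49 mitosis and spindle genes, 59 other mitosis genes and 39 replication and S phase genes; bars are list medians and the dashed line is the median of all genes tested. At 6 h the medians are -0.76, -0.48 and 0.00, at 24 h -0.30, -0.25 and -0.06, and between the times 0.44, 0.30 and -0.13.

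Among 21 tested regulators of mitotic gene transcription, 9 fell and 4 rose at 6 h (42.9% and 19.0%, against 27.4% and 15% of all tested genes; median -0.11). At 24 h 7 were lower and 4 higher (33.3% and 19.0%, against 22.8% and 17.5%; median -0.06), and the shares that rose are near those of all genes. CDKN1A (p21), an inhibitor of cyclin-dependent kinases, rose from 1947 ± 44.3 in PBS to 6622 ± 451 at 6 h and 5954 ± 279 at 24 h (SD, n = 3 each), 3.38-fold and 3.04-fold higher. The repressor E2F8 was -0.65 and -0.69 from PBS at the 2 times, RBL2 (p130), of the DREAM complex, -0.63 and -0.48, and the activator E2F2 -0.63 and -0.29. All 6 of these falls passed the test. Named after their values were seen, MYBL2 (B-MYB) gave 0.01 ± 0.10, adjusted p = 0.922 at 6 h and -0.51 ± 0.10, adjusted p = 0.00471 at 24 h, and the repressor E2F7 rose by 0.43 and 1.11. Of the NF-Y subunits, also chosen after their values were seen, NFYB was -0.55 and -0.20 (adjusted p = 0.0695 at 24 h) and NFYC -0.51 and -0.35 from PBS. These are values of single subunits and do not describe NF-Y as a whole.

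Among 13 tested G1 cyclins, kinases and inhibitors, 4 fell and 5 rose at 6 h (30.8% and 38.5%, against 27.4% and 15% of all tested genes). At 24 h 4 were lower and 3 higher (30.8% and 23.1%, against 22.8% and 17.5%). The share that fell at 6 h is near that of all genes. The inhibitor CDKN1C (p57) fell from 4445 ± 67.3 to 529 ± 8.14 at 6 h and 820.1 ± 52.3 at 24 h (SD, n = 3 each), and CDKN2D (p19) by 1.21 on the log2 scale at 6 h. Cyclin D1 (CCND1) rose from 56.1 ± 14.1, brighter than the controls on only 2 of its 3 PBS arrays, to 459 ± 34.2 and 1261 ± 9.01 (SD, n = 3 each), and its partner kinase CDK6 rose 2.17-fold at 6 h and 1.43-fold at 24 h.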

How the data were processed

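Intensity on a linear scale was deposited for each probe set. Per the design text, the authors exported the values from CHP files and did not use them in their own work. The summarisation of probes is not given in the sources used here. A 2% trimmed mean of 500.07 was found on every array, so arrays had been scaled before deposit. The number of arrays limits the precision. Signals were taken as log2(signal + 16), which understates changes of dim genes. Each gene was represented by its probe set with a single symbol and the highest mean of these values, and the dimmest 30% of genes (signal under about 32.2) were not tested. Choosing by the linear mean, added after the data were seen, left the 49 probe sets as they were. The 3 groups were fitted jointly (limma 3.58.1, R 4.3.3; lmFit and eBayes), with Benjamini-Hochberg adjustment over 13842 genes in each comparison; the fit was tested on simulated data. Control level means the brightest of 27 Bacillus subtilis probe sets on an array (34.2 to 65.0). The genes and lists were chosen with earlier results of these data known. Values of every array are given for the genes of largest and smallest change at 6 h in each role, for BUB3 and for CDK1, CCNB1, PLK1, AURKB, CDC20, TOP2A and FOXM1; up to 4 genes per further list are named by size among those called at 6 h. Alternatives were quantile normalization, equal array medians, pseudocounts of 1 and 64, no filter, a 50th percentile filter, the mean of all probe sets, a trended robust variance, only the arrays compared and a replicate block, and besides these each further probe set and each array left out.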

Additional observations from a re-analysis of the deposited data

Results flagged for a closer look

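The HAase arrays at 24 h and 6 h differed by limma in 42 of 49 genes; without PBS samples at 6 h, enzyme and harvest time cannot be told apart here. By role these were 5 of 6 kinetochore genes, 4 of 5 checkpoint genes, 9 of 10 kinesin motors, 8 of 10 regulators of mitotic entry, 3 of 4 genes of the chromosomal passenger complex, 6 of 6 spindle proteins, 3 of 3 cytokinesis genes, 3 of 4 genes of chromosome separation, and TOP2A (1 of 1). All of these were higher at 24 h. In the same comparison 19.7% of all tested genes were called higher and 13.3% lower. CDK1 and PTTG1 gave 0.00 and 0.03 between the times. Groups of 3 arrays are too small for a test of single outlying arrays.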

How the results depend on the processing

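The counts of genes called stayed within 1.5 times the reported ones under all alternatives run: 44 to 47 lower at 6 h (reported 46), 23 to 36 lower at 24 h (reported 29), 33 to 45 higher at 24 h than at 6 h (reported 42), and 1 higher at 24 h. Leaving out 1 array gave 43 to 46, 21 to 32 and 37 to 42, with medians of -0.77 to -0.71 at 6 h, -0.31 to -0.27 at 24 h and 0.42 to 0.47 between the times. Medians moved by more than 1 SD of the array medians of the treated group with a pseudocount of 64 (-0.74 at 6 h, 0.42 between the times), with the mean of all probe sets of a gene (-0.65 and 0.34) and with equal array medians (-0.31 at 24 h); the first and the last of these values lie within the range from leaving out single arrays. With the replicate number as a block, 46 were lower at 6 h, 25 lower at 24 h and 41 higher at 24 h than at 6 h. Deviations of same-numbered arrays correlated at only -0.05 to 0.04, and those of differently numbered arrays at -0.06 to 0.06. No shared deviation was seen, but these values cannot tell whether same-numbered samples were handled as pairs. Choosing probe sets by the linear mean, added after the data were seen, gave 46, 29 and 42. Single probe sets changed sign against a called value, none past the test: at 6 h SPC24 (0.00022), CCNB2 (0.24) and BIRC5 (0.018), at 24 h BUB1 (0.069 and 0.14), CCNB2 (0.29 and 0.37) and CDC25C (0.20), and between the times SPC24 (-0.22), ASPM (-0.17), NUSAP1 (-0.024), CKAP2 (-0.046), ECT2 (-0.21) and TOP2A (-0.31). The mean of the CCNB2 probe sets was 0.063 at 24 h. The cause of these changes was not tested. Under the settings other than single probe sets or arrays left out, 26 values of single genes lost and 25 gained a call at 24 h. Besides these, the CCNB2 value that changed sign at 24 h lost its call. Between the times 22 values lost and 6 gained a call. In the shorter window of 150 bases before the start, CHR letters were present for 73.2% of the genes (9.46% of tested genes) and CCAAT for 78.0% (34.7%).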
